A study of Mus musculus with 8 samples.

Results

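Across the mouse liver genome, 300 bins of 10 kb over protein-coding genes stood out by the number of paired-end tag (PET) ends they held in RNA polymerase II (Pol II) ChIA-PET. Genes of hepatocyte function and of the acute cellular response were among the densest: Alb, Tat, Pck1, Apoe, Fasn, Alas1, Errfi1 and Zfp36 all lay in the 25 densest bins. Bins over Sfi1 (rank 1) and Cdk5rap2 (rank 4) ranked above all of these. To choose them, the autosomes were divided into bins of 10 kb, ends in each were counted per 1000000 ends of an experiment (EPM), and the median of 3 experiments was taken. The 300 bins with the highest median among the 112282 bins overlapping a protein-coding gene (genic bins) are the dense genic bins, 0.267% of all genic bins. They were chosen on the density of ends, so their density is a description and carries no test.

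Livers came from wild-type C57BL/6 mice of 3 to 6 months that were fed freely under 12 hours of light and 12 hours of dark, and were taken at ZT06 or at ZT18 (ZT, hours since the lights came on). Per the labels, frozen liver powder was crosslinked, chromatin from 3 to 7 livers was combined, and the Pol II antibody 8WG16 was used. Experiment 1 (JM08) had 4 libraries and experiment 3 (JM12) had 2, both crosslinked with 1.5 mM EGS and 1% formaldehyde, and experiment 2 (JM11) had 2 libraries crosslinked with 1% formaldehyde alone. The deposited table gives the experiment of each PET and no library or time point, so every value here belongs to an experiment that combines day and night. Without values of single libraries there is no spread between samples and no p-value, and crosslinking cannot be told apart from experiment. The table held 474478 PETs (948956 ends) in experiment 1, 1438866 PETs (2877732 ends) in experiment 2 and 840210 PETs (1680420 ends) in experiment 3. Intervals are 95%, exact Poisson for densities and exact binomial for shares. They cover counting error only and treat ends as independent, which makes them too narrow where a short PET puts both of its ends in one bin.

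Pol II transcribes protein-coding genes, and the 8WG16 antibody binds the repeats of the C-terminal tail of its largest subunit, with a preference for the unphosphorylated form found at promoters. ChIA-PET pulls down crosslinked chromatin with such an antibody, joins DNA ends through a linker, and reads a short tag on each side. A bin rich in ends may hold a promoter with much Pol II or the body of a heavily transcribed gene. Liver chromatin is a mixture of cell types, and the number of cells of a type cannot be told apart from the amount of Pol II in each of them.

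The stretches of 100 bases before the annotated start are printed for 7 dense genic bins, because they show the different kinds of promoter that met here: secreted proteins and liver enzymes (Alb, albumin; Tat, tyrosine aminotransferase; Apoa1, the main protein of high-density lipoprotein; Pck1, the enzyme that commits carbon to gluconeogenesis), a rapidly induced inhibitor of the EGF receptor (Errfi1), a hepatocyte transcription factor (Cebpa) and a chaperone of the endoplasmic reticulum (Hspa5). Sequences are from RefSeq on GRCm38.p6, written 5′ to 3′ on the strand of the gene. Capitals mark short motifs found on either strand. One is TATAAA, a form of the TATA box that sets the start at some promoters. Another is the CCAAT box bound by NF-Y. The last is GGGCGG, a GC box bound by Sp1 and related factors. The motif TGACGTCA, counted further below, is not capitalised here and occurs unmarked in the Errfi1 stretch.
Alb, chr5:90460770-90460869, plus strand: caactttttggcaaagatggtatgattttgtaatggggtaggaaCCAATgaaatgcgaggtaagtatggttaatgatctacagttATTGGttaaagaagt
Tat, chr8:109990336-109990435, plus strand: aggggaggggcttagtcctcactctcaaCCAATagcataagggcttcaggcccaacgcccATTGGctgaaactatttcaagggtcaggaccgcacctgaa
Apoa1, chr9:46228530-46228629, plus strand: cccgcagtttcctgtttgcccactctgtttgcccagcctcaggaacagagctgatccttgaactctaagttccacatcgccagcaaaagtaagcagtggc
Pck1, chr2:173152973-173153072, plus strand: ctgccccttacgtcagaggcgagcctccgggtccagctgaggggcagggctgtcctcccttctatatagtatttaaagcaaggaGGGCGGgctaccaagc
Errfi1, chr4:150854970-150855069, plus strand: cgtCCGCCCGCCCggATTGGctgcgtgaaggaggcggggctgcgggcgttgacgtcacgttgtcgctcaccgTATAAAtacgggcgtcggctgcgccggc
Cebpa, chr7:35119193-35119292, plus strand: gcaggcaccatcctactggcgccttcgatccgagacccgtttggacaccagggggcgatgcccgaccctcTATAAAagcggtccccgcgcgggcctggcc
Hspa5, chr2:34771990-34772089, plus strand: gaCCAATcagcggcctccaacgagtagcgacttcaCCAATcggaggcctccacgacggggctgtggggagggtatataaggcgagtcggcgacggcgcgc
Within 500 bp of these starts the dense bins held a part of their ends that differed by gene. The Errfi1 start had 139, 87 and 52 of the 432, 223 and 124 ends of its bin in experiments 1, 2 and 3. The Alb start had 78, 44 and 32 of 506, 163 and 143 ends. The Cebpa start had 81, 56 and 43 ends and lies in the first of the 2 dense bins of that gene. The Pck1 start had 67 of 412 ends in experiment 1 and 64 of 253 in experiment 2. It had 6 of 56 in experiment 3, so experiment 3 was low there in absolute count although it was deeper than experiment 1.

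The dense genic bins held far more ends than a typical genic bin in each experiment, and the contrast was widest in experiment 1. There the density ran from 8.43 to 533.2 EPM with a median of 78.5, against a median of 3.16 over all genic bins. In experiment 2 it ran from 3.13 to 155.7 with a median of 15.6, against 4.17. In experiment 3 it ran from 20.8 to 139.3 with a median of 31.5, also against 4.17. The order of the medians in the dense bins, experiment 1 above 3 above 2, was not the order in all genic bins, where experiment 1 had the lowest median. The bins held 2.86% of all ends in experiment 1 (27175 ends), 0.610% in experiment 2 (17568) and 1.08% in experiment 3 (18168). Their mean density was 19.1, 4.62 and 7.32 times the mean of all genic bins in experiments 1, 2 and 3.

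The same order held bin by bin. Experiment 1 was highest, experiment 3 in the middle and experiment 2 lowest in 277 of 300 dense bins. The value that ranked a bin was therefore the one of experiment 3 in 282 bins, of experiment 2 in 11 and of experiment 1 in 7. Experiment 1 was at least 2 times as dense as experiment 2 in 282 of 300 bins (94.0%), against 15.7% of the 81547 genic bins with at least 20 ends. Nothing is read from that contrast, since both values entered the choice of the bins. Within the dense bins the Spearman correlation of experiment 1 was 0.540 with experiment 2 and 0.539 with experiment 3, and that of experiments 2 and 3 was 0.565. Over all genic bins these were 0.269, 0.353 and 0.310. The dense bins were chosen on these same values. They held medians of 74.5, 45 and 53 ends in experiments 1, 2 and 3, against 3, 12 and 7 in all genic bins. Nothing is therefore read from the difference between the 2 sets of correlations. These correlations are over bins of the same 3 pools, which are not independent replicates.

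An experiment that took no part in the choice gave a measure free of the rule. When 300 bins were chosen on experiments 2 and 3, 199 of them (66.3%, 60.7 to 71.7%) were among the 300 densest genic bins of experiment 1, against 0.267% of all genic bins. When chosen on experiments 1 and 3, 193 (64.3%, 58.6 to 69.8%) were among the 300 densest of experiment 2. When chosen on experiments 1 and 2, 198 (66.0%, 60.3 to 71.4%) were among the 300 densest of experiment 3. About the same part of the bins came back in each left-out experiment. Of the bins that did not come back, 83 of 101, 52 of 107 and 59 of 102 lay above the 99th percentile of genic bins in experiments 1, 2 and 3, and none was without ends. Of the dense genic bins themselves, 145 were among the 300 densest of every single experiment.

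**Figure D1:**
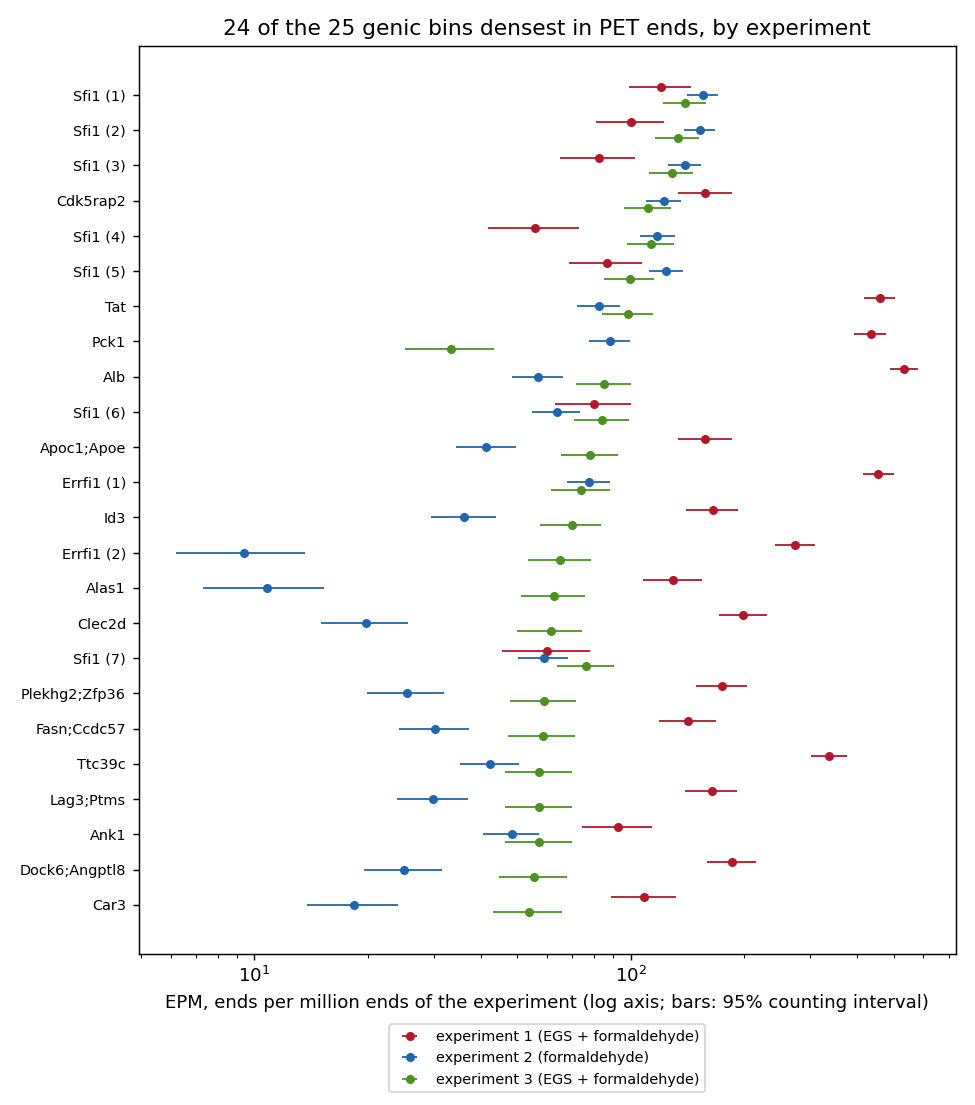
EPM (log axis) in 24 of the 25 densest genic bins, with a point for each experiment and bars for the 95% Poisson interval; numbers in brackets separate bins over one gene. Experiment 1 is highest in most bins, with Alb at 533.2, while the Sfi1 bins have experiment 2 or 3 highest or level with it.

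Liver enzymes and secreted proteins began at rank 8, with Tat, Pck1 and Alb at ranks 8, 9 and 10. The bins above them included Sfi1 at rank 1 and Cdk5rap2 at rank 4. The Tat bin had 459.5, 82.4 and 98.2 EPM in experiments 1, 2 and 3, from 436, 237 and 165 ends. The first Alb bin had 533.2, 56.6 and 85.1, the highest value of any genic bin in experiment 1. Pck1 had 434.2, 87.9 and 33.3. Tat and Alb had the usual order of experiments, and Pck1 was among the 11 bins with experiment 2 in the middle. The bin over Apoc1 and Apoe, apolipoproteins of triglyceride-rich particles, had 158.1, 41.4 and 78.0. The Alas1 gene, for the first enzyme of haem synthesis, covered 2 dense bins, with 129.6, 10.8 and 62.5 in one and 251.9, 28.8 and 51.8 in the one that holds its start. Fasn, the fatty acid synthase, shared a bin with Ccdc57 at 142.3, 30.2 and 58.3, and the bin of Dock6 and Angptl8, a regulator of lipoprotein lipase, had 185.5, 25.02 and 55.3. Car3, a carbonic anhydrase abundant in liver and fat, had 108.5, 18.4 and 53.6. All of these bins kept experiment 1 on top.

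Other leading bins lay over genes of signalling and of general function. The bin with the start of Errfi1 had 455.2, 77.5 and 73.8 EPM, and the next bin of the gene had 274.0, 9.38 and 64.9. Over the body of Errfi1 experiment 2 was thus much lower than at the start, while experiments 1 and 3 fell less. Id3, an inhibitor of bHLH transcription factors, had 165.4, 36.1 and 69.6, and the bin of Zfp36, which binds AU-rich messages and shortens their life, had 174.9, 25.4 and 58.9 together with Plekhg2. Clec2d, a C-type lectin, had 199.2, 19.8 and 61.3, and the bin of Lag3 and Ptms had 164.4, 29.9 and 57.1, with its annotated start being that of Ptms (parathymosin). Ttc39c had 337.2, 42.4 and 57.1.

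The bins that were densest in experiment 1 relative to the others lay over genes of secreted liver proteins and over Egfr, Cyp2e1 and Errfi1. Serpina3k, a plasma protease inhibitor, had 284, 30 and 46 ends in experiments 1, 2 and 3, and its density in experiment 1 was 15.8 times the mean of the other experiments. The second Alb bin had 254, 40 and 59 ends, a ratio of 10.9, and an Apob bin had 150, 17 and 43, a ratio of 10.0. Egfr followed with a ratio of 9.23, Cyp2e1 with 8.53, the first Alb bin with 7.52, the second Errfi1 bin with 7.38 and Ahsg (fetuin-A) with 7.37. The lowest ratios were 0.265 in a Mroh2a bin (8, 87 and 56 ends) and 0.484 in a Sfi1 bin (53, 339 and 190 ends), then 0.614, 0.700, 0.772 and 0.815 in other Sfi1 bins and 0.653 and 0.807 in other Mroh2a bins. These 8 are also the bins in which experiment 1 was below experiment 2.

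The bins over Sfi1 and Mroh2a stood apart from the rest in several measures. A run of 7 adjoining dense bins lay over Sfi1, chr11:3130000-3199999, and another 7 over the Ugt1a cluster, Mroh2a and Hjurp, chr1:88210000-88279999. In 114 dense bins a stretch of 100 bp held over 10% of all ends, and in 83 of the 113 on a chromosome with listed starts this stretch was within 1 kb of a start. In 6 bins it held over 30%: Cdk5rap2 (79.5%), Chl1 (77.0%), Nf1 (74.6%), Spag17 (54.8%), 2210408I21Rik (51.4%) and Ank1 (36.8%). The densest Sfi1 bin had 120.1, 155.7 and 139.3 EPM in experiments 1, 2 and 3, the Cdk5rap2 bin had 158.1, 122.3 and 111.3, and the Ank1 bin had 92.7, 48.3 and 57.1. In these bins the experiments were closer to each other than over the liver genes. The limit of 30% was set after the values were seen. Of the ends in the Nf1 bin 26.0% had a position of their own within an experiment, and in the Cdk5rap2 bin 30.6%, against 94.3% in the Tat bin and 92.1% in the first Alb bin. The Sfi1 bins were not piled up in this way, since their densest 100 bp held 2.64 to 5.25% of ends. The 6 bins together with the bins over Sfi1, Mroh2a or Hjurp made 19, and the median ratio of experiment 1 to experiment 2 was 1.26 in them and 5.06 in the other 281. The Sfi1 and Mroh2a bins were set apart with these ratios known, so the contrast follows from that choice and nothing is read from it. Without the 19 the Spearman correlation was 0.639 in place of 0.540 between experiments 1 and 2. It was 0.592 in place of 0.539 between 1 and 3, and 0.533 in place of 0.565 between 2 and 3. Since the 19 were set apart with their values known, nothing is read from these changes either.

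**Figure D2:**
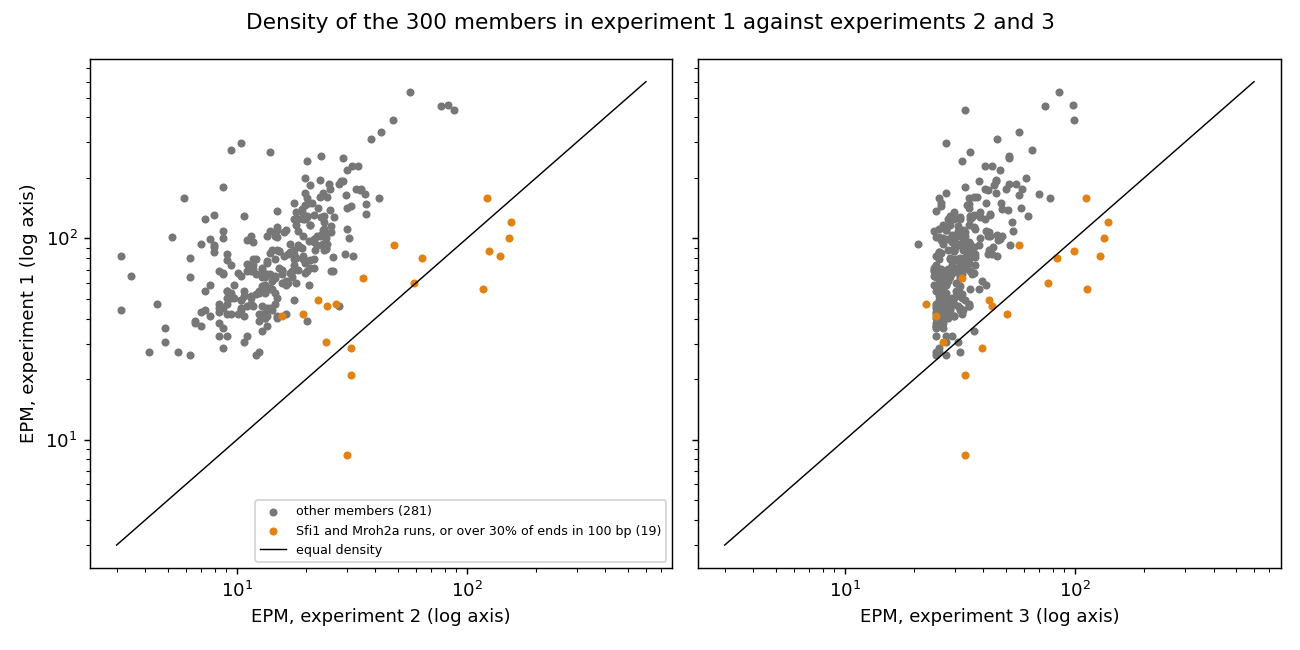
EPM in experiment 1 against experiment 2 (left) and experiment 3 (right) for the 300 dense genic bins, all axes log, with the line of equal density. The 19 bins over Sfi1, Mroh2a or Hjurp or with over 30% of ends in 100 bp are in orange and lie near or under the line, and the other 281 lie above it against experiment 2.

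By gene, 378 of 20661 autosomal protein-coding genes lay over a dense bin (1.83%). Counted together, 509 genes were on the lists of liver functions and of clock, early response, heat shock and growth factor signalling genes. Of these, 101 lay over a dense bin (19.8%), and 122 of the 300 bins lay over at least 1 of them. Genes over a dense bin were shorter than others, with a median length of 12.3 kb against 17.5 kb. The lists are named in turn, with shares set against the 1.83% of all genes, and carry no test. They were chosen with earlier results of these data known, so part of the contrast may come with that choice.

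Secreted proteins were represented by some of their genes. Among carrier and other plasma proteins 6 of 44 genes were over a dense bin: Alb, Ahsg, Rbp4 (retinol carrier), Trf (transferrin, iron carrier), Ttr (thyroxine carrier) and Serpina3k. Ahsg had 309.8, 38.2 and 45.8 EPM in experiments 1, 2 and 3, Trf had 191.8, 28.8 and 38.1, and Ttr had 160.2, 22.9 and 36.3. Of 20 apolipoproteins and lipoprotein assembly genes 8 were over a dense bin, including Apoa2 at 191.8, 28.5 and 45.2 and Apoa1 with Apoc3 at 176.0, 34.8 and 40.5. The fibrinogen genes Fgb, Fgg and Fga, which lie side by side and encode the chains of the clot protein, shared a run of 5 adjoining dense bins, with Fgb at 184.4, 20.9 and 44.6. No other of 23 coagulation genes was over a dense bin, and the next was Serpinf2 at rank 669. From complement only C3, the central component, was over a dense bin (1 of 21; 130.7, 7.99 and 36.3). None of 22 major urinary protein genes was. Their best, Mup3, had rank 3035, with 67.4, 11.1 and 11.3, and 7 of them had no end in any experiment. These genes are near-identical copies, so their counts are uncertain.

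Metabolic enzymes were well represented, each pathway by a few genes. From the urea cycle 3 of 6 genes were over a dense bin, namely Ass1 (173.9, 34.4 and 41.7 EPM, with a run of 3 bins), Arg1 and Cps1. The others, Nags, Slc25a15 and Asl, were just outside at ranks 374, 481 and 485. In glucose metabolism 7 of 20 genes were over a dense bin, among them Pck1, Ppp1r3b (glycogen-targeting subunit of protein phosphatase 1) at 121.2, 24.0 and 53.0 and Fbp1 (fructose bisphosphatase) at 137.0, 14.9 and 24.99. In fatty acid and cholesterol synthesis 9 of 31 genes were, with Insig1 (sterol sensor partner) at 139.1, 25.4 and 51.2, Scd1 (stearoyl-CoA desaturase) at 98.0, 11.5 and 46.4 and Fads1 at 66.4, 12.2 and 35.7. Fatty acid oxidation had 3 of 24, led by Fabp1, the liver fatty acid binding protein, at 256.1, 23.3 and 51.8. Amino acid breakdown had 7 of 40, with Tat, Aldh1l1, Gnmt and Gpt first, and Gnmt, a glycine methyltransferase, at 174.9, 33.0 and 50.0.

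Detoxification was uneven. Conjugation and other xenobiotic enzymes had 8 of 46 genes over a dense bin, with Ces3a (a carboxylesterase) at 140.2, 19.1 and 48.2, Mgst1 at 127.5, 20.2 and 38.7 and Gsta3 at 161.2, 24.7 and 37.5. Of these 8, Ugt1a9, Ugt1a6a and Ugt1a1 lie over the run next to Mroh2a. Among 41 cytochrome P450 genes of families 1 to 4 only Cyp2e1 was, at 179.1, 8.69 and 33.3, which is close to the share of all genes, 2.44% against 1.83%. Bile acid genes had 2 of 21, Hsd3b7 and Abcc2, both near the limit, and the rate-limiting enzyme Cyp7a1 had rank 3366 with 40.04, 8.69 and 10.7.

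Regulators formed the largest group by count. Of 40 hepatocyte transcription factors and nuclear receptors 16 were over a dense bin. Bcl6, a repressor, had 186.5, 27.8 and 51.8 EPM, and Xbp1, a factor of the unfolded protein response, 150.7, 20.5 and 47.6. Cebpa had 104.3, 23.3 and 45.8 in its denser bin, which follows the bin with its start. Foxo3, Rxra and Atf4 followed, and Foxa3, in a bin shared with Sympk, was just inside the limit. Immediate-early and stress response genes had 14 of 41, among them Errfi1, Zfp36, Jund, Pim3 and Dusp1, a phosphatase of MAP kinases, at 107.5, 25.7 and 42.3. Heat shock and cold-inducible genes had 7 of 26, with Hspa5 at 128.6, 24.0 and 35.1, Calr (calreticulin) at 107.5, 16.0 and 33.3, Hsp90ab1 at 93.8, 23.6 and 31.5 and Cirbp, a cold-inducible RNA-binding protein, at 76.9, 13.6 and 31.5. Clock genes had 3 of 22: Dbp (109.6, 14.9 and 27.4), Tef (54.8, 9.04 and 26.8) and Per2 (40.04, 13.2 and 26.8). The Dbp bin holds only a short end part of Dbp and lies mostly over Sphk2 and Rpl18. The Per2 bin also holds Hes6, and which gene gave the ends was not tested. Bhlhe40, at rank 341, had 134.9, 18.8 and 23.2. Since both time points are combined, these levels say nothing of day against night. Growth factor signalling had 3 of 22, Igfbp4, Egfr and Igfals.

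Of the hepatocyte markers set in the planned design, Alb, Apoa1, Apob, Ttr, Cps1, Tat, Cyp2e1 and Fgb were over dense bins. Serpina1c and Hnf4a were not, and Hnf4a had rank 400 with 111.7, 18.1 and 22.0 EPM in experiments 1, 2 and 3. None of 15 Kupffer cell and leukocyte markers, 12 endothelial, 11 stellate and fibroblast, 8 cholangiocyte and 14 brain and muscle genes was over a dense bin, and none of 1104 olfactory receptor genes. At the 1.83% of all genes, lists as short as the first 5 would hold few such genes or none, so their zeros say little by themselves. The densest of the first 4 of these lists were Cd68 at rank 802 (28.4, 6.25 and 18.4), Eng at rank 1007 (30.6, 4.17 and 17.3), Reln at rank 4155 and Sox9 at rank 1026. Taking each gene at its densest bin, the median density was 7.30 EPM over the Kupffer cell and leukocyte list, 8.03 over the endothelial, 5.91 over the stellate and fibroblast and 6.46 over the cholangiocyte list. It was 6.55 over all 20661 genes and 10.1 over the 44 plasma protein genes, so the lists of other liver cells were near all genes and the plasma protein list was above them by a modest margin. A longer gene covers more bins, which can raise its densest value, and this was not adjusted for. Median gene lengths were 10.9, 39.5, 29.3 and 10.6 kb in these 4 lists in the same order. They were 10.0 kb for plasma proteins and 17.5 kb for all genes. The sums were 127.5, 79.6 and 116.0 in experiments 1, 2 and 3 for the 15 Kupffer cell and leukocyte genes. Of general housekeeping genes, 3 of 80 for cytosolic ribosomal proteins (3.75%; Rpl13a and Rpl18 among them, in 2 bins) and 3 of 68 replication-dependent histone genes (4.41%; H2bc18, H3c13 and H4c14, in 1 bin) were over a dense bin. Both shares are above the 1.83% of all genes but rest on 3 genes in 1 or 2 bins.

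**Figure D3:**
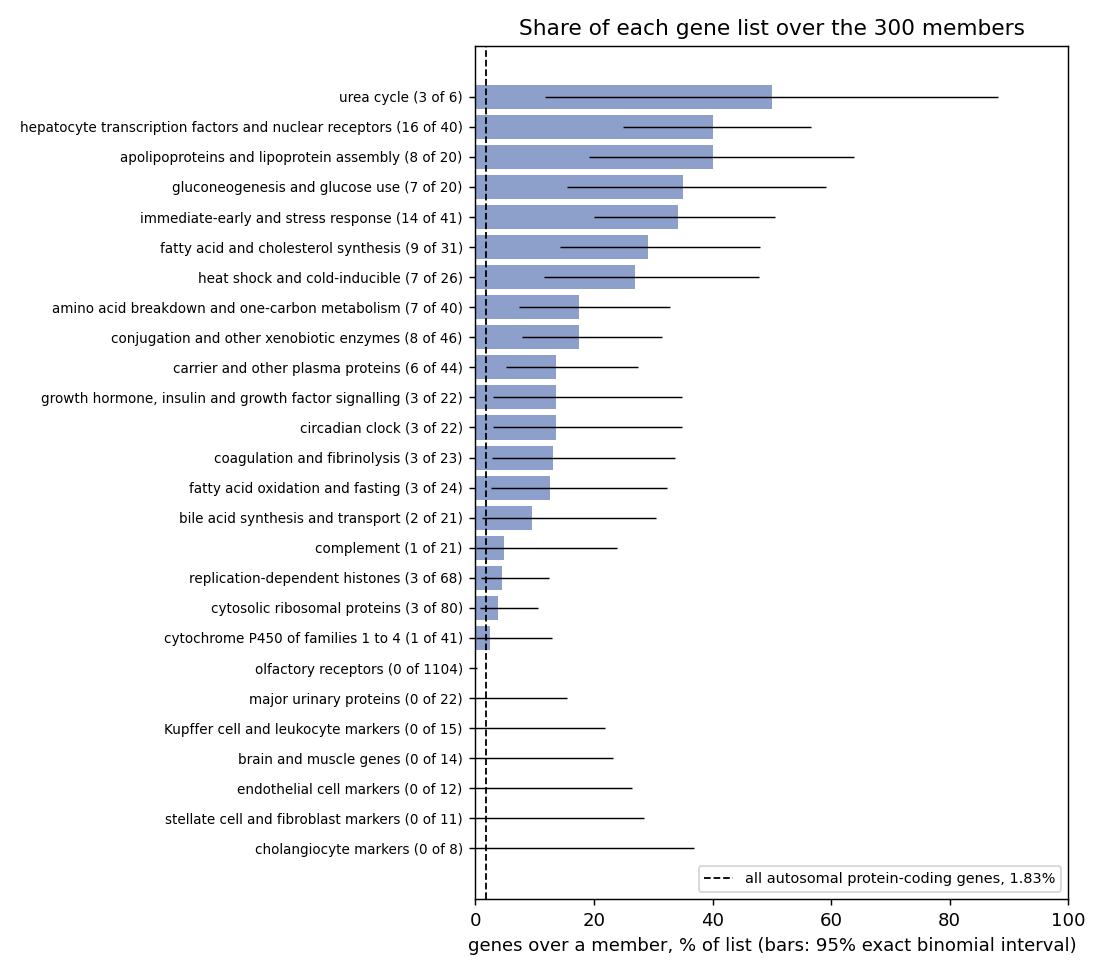
Share of the genes of each of 26 lists that lie over a dense genic bin, in % of the list, with bars for the 95% exact binomial interval and a dashed line at the share of all autosomal protein-coding genes (1.83%). The urea cycle, hepatocyte transcription factors and apolipoproteins have the highest shares, and 7 lists, among them the major urinary proteins and 4 lists of other liver cell types, have 0. The lists were chosen with earlier results of these data known.

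The dense bins were placed at the ends of genes, mostly at starts. A gene boundary lay in 258 of 300 (86.0%), against 27.4% of all genic bins. An annotated start lay in 201 of the 295 dense bins with start sites on their chromosome (68.1%), against 15.0% of such genic bins. The table of starts holds 79.7% of the genes, so this share is a lower count. The densest 100 bp were within 1 kb of an annotated start in 176 of 295. Dense bins also lay over several genes more often: 80 (26.7%) over 2 genes and 19 (6.33%) over 3 or more, against 5.85% and 0.576% of all genic bins. Gene-rich bins may enter the rule through any of their genes, and which gene gave the ends was not tested. The bins were not spread evenly, with 36 of the 300 on chromosome 11 (0.548% of its genic bins), of which 7 are Sfi1 bins, and 5 on chromosome 14 (0.0945%). In 70 of them another dense bin adjoined, in 28 runs, the longest over Sfi1, the Ugt1a and Mroh2a stretch, the fibrinogen genes and Ass1.

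Around the 267 starts inside dense bins the ends formed a peak that reached into the gene. The highest of the 500 bp windows was the first one after the start in each experiment, both for these starts and for all 17912. Within 500 bp of the start the density was 28.7, 5.90 and 10.7 EPM per kb and start in experiments 1, 2 and 3. Between 3 and 5 kb into the gene it was 5.85, 1.04 and 2.13, and between 3 and 5 kb before the start 2.69, 0.679 and 1.35. The gene side was therefore 2.17, 1.53 and 1.58 times as dense as the upstream side. Over all starts that ratio was 1.24, 1.07 and 1.12. The start over the gene side was 4.90, 5.69 and 5.01 in the dense bins and 5.91, 2.77 and 4.02 over all starts. In experiment 1 the dense bins thus had a lower ratio of start to gene body than all starts, and in experiments 2 and 3 a higher one. The sums rest on 7271 ends at the starts in experiment 1, 4531 in experiment 2 and 4781 in experiment 3. Neighbouring genes and the choice of dense bins enter these windows.

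**Figure D4:**
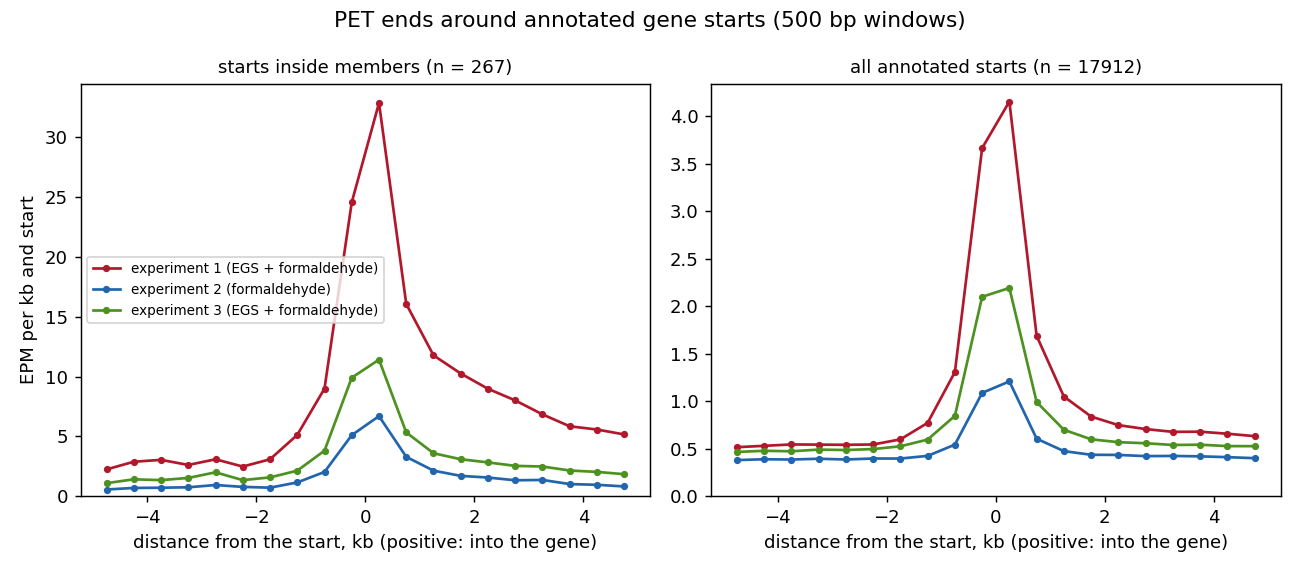
PET EPM per kb and start in windows of 500 bp, against the distance from the annotated start in kb, for the 267 starts inside dense genic bins (left) and all 17912 starts (right); the vertical scales differ, and each line is an experiment. The peak is in the window from 0 to 500 bp in every experiment, and inside dense bins the line of experiment 1 stays higher on the gene side than before the start.

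The promoters of the dense bins were richer in G and C than most. For the 312 starts of 238 genes inside dense bins, the 300 bases from 250 before to 50 after the start had a median GC content of 62.3%, against 57.0% over 20084 starts, and a median CpG ratio (observed over expected from base content) of 0.742 against 0.586. The dense bins held contrasting kinds. The 18 starts of plasma protein, apolipoprotein, coagulation and complement genes had a median CpG ratio of 0.291, while the 38 starts of early response, heat shock and transcription factor genes had 0.832. Both values were near those of the same lists genome-wide, 0.228 and 0.773. The sequences printed above show the contrast, as Errfi1 has a CpG ratio of 1.23 and Alb 0.272 over the 300 bases. On either strand, GGGCGG was in 64.4% of dense-bin promoters (58.8 to 69.7%) and 47.0% of all, CCAAT in 43.0% (37.4 to 48.7%) and 38.1%, CACGTG in 10.9% (7.67 to 14.9%) and 7.89%, TATAAA in 12.8% (9.32 to 17.1%) and 12.7%, and TGACGTCA in 2.24% (0.907 to 4.57%) and 2.30%. In the 18 plasma protein promoters TATAAA was in 7 and GGGCGG in 1. A match is only a match of letters, and starts of one gene overlap.

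Ends of short PETs made up much of the density. PETs whose ends were at most 8 kb apart gave 46.3% of the ends that experiment 1 had in dense bins (45.7 to 46.9%). For experiment 2 this share was 25.6% (24.99 to 26.3%), and for experiment 3 it was 27.0% (26.4 to 27.7%). In all genic bins they gave 27.3%, 7.49% and 16.3%. A short PET counts with both ends, and the rule counts ends, so part of this difference comes with the rule. When PETs of at most 8 kb were left out and the bins chosen again, 256 of the 300 were chosen again. Among bins with at least 30 ends in an experiment, the share ran from 0 to 73.7% in experiment 1, with a median of 47.4%. It was highest over B4galt1 (28 of 38 ends), Dbi (66 of 97) and Foxo3 (52 of 78). It was lowest in the bins with a piled-up stretch: 4 of 150 ends over Cdk5rap2, 2 of 88 over Ank1, and 0 of 39 over Spag17, which allows up to 9.02%. Mdga2, a gene of neuronal cell adhesion, had 0 of 65 in experiment 1 (up to 5.52%) and 0 of 75 in experiment 2 (up to 4.80%), with 24.7% of its ends in a stretch of 100 bp. In the 19 bins set apart above the share was 16.1%, 3.41% and 8.94%, and in the other 281 it was 47.6%, 31.3% and 29.5%. The 19 bins were therefore low in short PETs even against all genic bins, in each experiment. The median distance of the short PETs in dense bins was 226, 334 and 349 bp.

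Joining between dense bins was set against the number expected if the ends outside short PETs had been paired at random within an experiment and linker. At 8 to 100 kb, 18 PETs joined different dense bins against 1.63 expected, a ratio of 11.1 (6.56 to 17.5). By experiment the counts were 6, 3 and 9 against 0.378, 0.775 and 0.473. The ratio over all genic bins, where PETs with both ends in 1 bin also counted, was 22.7 (21.7 to 23.7). Dense bins thus exceeded random pairing at this distance. Their ratio was under that of all genic bins, but that order depends on the 19 bins set apart above. With those 19 counted, the dense bins stayed under all genic bins with each experiment left out. The ratios were 9.61 against 20.4 without experiment 1, 17.6 against 40.4 without experiment 2 and 7.80 against 12.25 without experiment 3. Without the 19 bins set apart above, 14 PETs remained against 0.344, a ratio of 40.7 (22.3 to 68.3). That value rests on experiment 3, which had 8 of the 14 PETs and a ratio of 122.4 (52.9 to 241.2), while experiment 1 had 19.6 (6.35 to 45.6), under the 34.0 of all genic bins there, and experiment 2 a single PET. It was 102.2 without experiment 1 and 21.6 without experiment 3, so no order against all genic bins is read from it. Those 19 alone had 4 against 1.26, so most of the expected number came from them, and the ratio depends on whether they are counted. Genic bins of ranks 301 to 1000 had 18 PETs against 0.137, a ratio of 131.3 (77.8 to 207.5). At 100 kb to 2 Mb there were 4 against 0.662, a ratio of 6.04 (1.65 to 15.5), and beyond 2 Mb 12 against 13.4, a ratio of 0.892 (0.461 to 1.56). No excess was detectable beyond 2 Mb at this depth. Over all distances above 8 kb on one chromosome there were 34 against 15.7, a ratio of 2.16 (1.496 to 3.02).

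Most joining PETs linked different chromosomes, 258 against 34 within one, where random pairing gave 222.2 against 15.7. The same held over all genic bins, with 597531 against 39466, so this is not particular to the dense bins. Within 100 kb the joined bins were often parts of one gene or of neighbours. Of 15 joined pairs within 100 kb, 2 had more than 1 PET, and both of these were seen in 2 experiments. The bin of Cbarp, Atp5d and Midn was joined to the Cirbp bin on chromosome 10 by 3 PETs of 11.1 to 20.6 kb, 1 in experiment 1 and 2 in experiment 3. A bin of Mroh2a and Hjurp was joined to the next bin of Hjurp by 2 PETs, 1 in experiment 1 and 1 in experiment 3. Single PETs joined the bins of Alb (13.7 kb), of Cebpb (10.3 kb), of Ppp1r3b (8.65 kb), of Ttc39c (13.7 kb), of Fga (11.2 kb) and of Apoa1 (11.2 kb) to each other, Fgg to Fga (25.1 kb) and Tnrc18 to Actb, the gene of cytoplasmic actin (84.4 kb). No single pair was tested. In all, 243 of 3075 nuclear PETs of 8 to 100 kb had an end in a dense bin (7.90%), with 12.5% in experiment 1, 3.27% in experiment 2 and 7.18% in experiment 3. Of these 243 the other end was in another dense bin in 18, in the same bin in 2, in another genic bin in 160 and in a bin without a gene in 63.

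Between chromosomes the experiments differed. In experiment 1, 145 PETs joined dense bins on different chromosomes against 135.9 expected, a ratio of 1.07 (0.900 to 1.26), and in experiment 3, 53 against 56.7, a ratio of 0.935 (0.700 to 1.22). In experiment 2 there were 60 against 29.6, a ratio of 2.03 (1.55 to 2.61). Without the 19 bins set apart above it was 53 against 17.1, a ratio of 3.10 (2.32 to 4.05), and over all genic bins 1.00 (0.997 to 1.00). The excess in experiment 2 was not limited to the dense bins, since genic bins of ranks 301 to 1000 had 65 against 33.4, a ratio of 1.95 (1.504 to 2.48). In those bins experiments 1 and 3 had 1.29 (1.11 to 1.501) and 1.25 (1.03 to 1.495). The intervals of experiment 2 did not overlap those of the other experiments in the dense bins. Of the 285 joined pairs at any distance 4 on different chromosomes had 2 PETs, all in experiment 1, among them Mavs with Ttr, Gjb2 with Selenop and the Apoc1 and Apoe bin with Egfr. In the first 2 of these both PETs shared a read-1 position.

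**Figure D5:**
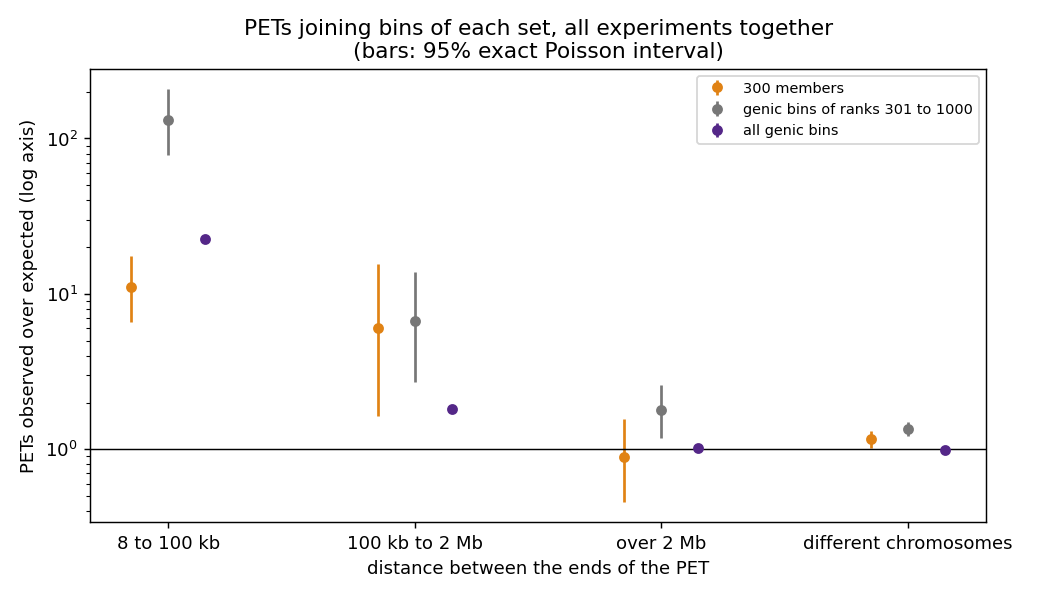
PETs joining different bins of a set, observed over expected from random pairing of the ends (log axis), by distance class, all experiments together, with bars for the 95% exact Poisson interval; the line marks a ratio of 1. At 8 to 100 kb the dense genic bins have 11.1, all genic bins have 22.7 and genic bins of ranks 301 to 1000 have 131.3. Without the bins set apart in the text the dense bins have 40.7, so no order against all genic bins is read. Between chromosomes the dense bins have 1.16, with 1.07, 2.03 and 0.935 in experiments 1, 2 and 3. For all genic bins, PETs with both ends in 1 bin are also counted.

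The limit of the choice fell in a dense field of ties. The last bin chosen had a median of 24.4 EPM, and 6 bins inside and 18 outside had this value, which is 41 ends in experiment 3. Ties were broken by the mean of the experiments. The last 5 inside lay over Foxa3 and Sympk (68, 62 and 41 ends), Dgkq, Idua and Slc26a1 (66, 45 and 41), Mavs (65, 24 and 41), Rundc3a and Slc25a39 (56, 47 and 41) and Nudt7 (62, 10 and 41). The first 5 outside lay over Mlxipl (57, 20 and 41), a second bin of Car3 (54, 29 and 41), H1f2 (49, 39 and 41), Hyou1 with Slc37a4 (50, 35 and 41) and Rhof with Setd1b (49, 30 and 41). Experiment 3 had 41 ends on both sides, and the ranges of both sides overlapped in experiment 1 (56 to 68 inside, 49 to 57 outside) and in experiment 2 (10 to 62 and 20 to 39). Single bins differed by more than counting error in experiment 2, such as Nudt7 inside with 10 ends and H1f2 outside with 39.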

How the data were processed

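Positions of PETs came from a table deposited by the authors with no header line: the experiment, the linker, and the chromosome and position of each end, with no count, library or time point. Per the submitters' processing notes, the reads were processed with Bowtie2 and mm10; how PETs were filtered and which duplicates were dropped is not stated in those notes. Ends were counted in 10 kb bins over protein-coding genes of RefSeq (GRCm38.p6), divided by all ends of the experiment in the table and multiplied by 1000000 (EPM), and ranked by the median of 3 experiments. The table of starts and promoters holds no entry for chromosome 18, whose 5 dense bins are left out where starts are used. Chance joining used the ends of each experiment and linker, without PETs of at most 8 kb. Functions were tested on simulated PETs. The planned design held no test over samples, and named genes were the 25 densest bins, 5 each side of the limit, 8 at each end of the ratio of experiment 1 to the others, up to 4 a list, bins with over 10% of ends in 100 bp and pairs with 2 or more PETs; other genes were named after their values were seen. A few genes that the rule names are not reported here. The 300 bins and the 26 gene lists were chosen with earlier results of these data known. Python 3.11.15, pandas 2.3.3, NumPy 2.4.6 and SciPy 1.17.1 were used. Alternatives changed the bins, the PETs counted, the limits and the number of bins.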

Additional observations from a re-analysis of the deposited data

Results flagged for a closer look

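Data outside the genic bins also reached the limit of 24.4 EPM (ends per 1000000 ends). On the autosomes 28 bins of 10 kb without a protein-coding gene did so, and on chromosome X 2 did; they are marked because the choice of dense genic bins does not use them. The densest were chr2:98660000-98669999 with 2226, 1413 and 1398 EPM in experiments 1, 2 and 3 and chr14:19410000-19419999 with 2395, 1032 and 1355, both above every genic bin. Among named genes, 3 bins over Neat1, a nuclear long noncoding RNA, had medians of 115.4, 70.8 and 48.2, and the bin of Mir122, the main microRNA of hepatocytes, had 433.1, 50.4 and 88.1. The bin of the 18S ribosomal pseudogene Rn18s-rs5 had 152.8, 96.6 and 526.7, with experiment 3 highest.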

How the results depend on the processing

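When the bins were chosen again in other ways, 205 to 258 of the 300 came back with each experiment left out in turn, 239 with the grid shifted by 5 kb (by overlap), 225 with the mean of the experiments, 254 with PETs between chromosomes only, 256 without PETs of at most 8 kb, 289 with distinct positions, 279 without the densest 100 bp and 267 over 6 subsets of experiment and linker. Of 600 bins of 5 kb, 310 lay in the dense bins. With PETs between chromosomes only, the share of bins found again in a left-out experiment was 57.3% in experiment 2 and 59.7% in experiment 3; with 1000 bins it was 53.7% and 60.0%, and with 100 bins 60.0% in experiment 1. The joining ratio on one chromosome was 1.47 with a limit of 20 kb, 2.16 with 8 kb, and between 1.75 and 2.496 with each experiment left out; between chromosomes it was 1.03 to 1.31. Of the 509 genes on the function lists counted together, 9.43% were over a dense bin with 100 bins and 34.8% with 1000. The shares of all genes were 0.547% and 6.06%, and 2.04% with 2.5 kb added either side. The causes were not tested. Without the 19 bins set apart, an alternative chosen after seeing the data, the ratios were 2.503 on one chromosome and 1.27 between chromosomes. No paired analysis was possible because the table names no library, so replicate numbers cannot be placed. Within 100 kb the joining rests on 18 PETs, 3 to 9 an experiment.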

Other observations

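Many dense genic bins lay over genes on none of the lists. Outside the first 25, one held the start of Id2, which like Id3 encodes an inhibitor of bHLH factors, with 218.1, 30.2 and 47.0 EPM in experiments 1, 2 and 3. Sephs2, which makes the selenium donor for selenoproteins, had 193.9, 22.9 and 45.2, with its densest 100 bp 9 bp from the start (centre to start). Phlda1, a gene of the early response to growth factors, had 168.6, 23.6 and 45.2. The bin of Elovl3, a fatty acid elongase, and Pitx3 had 131.7, 36.5 and 42.9. The bin of Nfatc3 and Esrp2, an epithelial splicing regulator, had 102.2, 22.9 and 48.2, and the bin of Brd2, a bromodomain protein that binds acetylated histones, had 87.5, 21.9 and 42.3. In all 6 experiment 1 was highest and experiment 2 lowest. These genes were picked from the table by rank after their values were seen.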
